A study of Mus musculus with 24 samples.

Results

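Neuronal, progenitor and glial marker genes were followed in differentiated mouse ES cells that lacked both REV-ERB nuclear receptors. The genes were taken by symbol from the gene table, which listed 33079 genes, and all 39 symbols were found, each on 1 row. They comprised 24 neuronal, 4 progenitor and 11 glial genes. The samples were 24 polyA-selected RNA-seq libraries, 12 from control cells that carry a Per2::Luciferase knock-in (WT) and 12 from Rev-erbα/Rev-erbβ deficient cells on the same background (KO). Cells were grown as embryoid bodies, given 100 nM dexamethasone at differentiation day 28 and harvested at 4 h steps between 12 and 56 h, and each library held the pooled RNA of 3 embryoid bodies. There was 1 library per genotype and hour, so the 12 libraries of a genotype served as its replicates, and their SD includes both time and differences among embryoid bodies. The KO cells came from picked colonies in which Rev-erbβ and then Rev-erbα was disrupted by exon deletion, so genotype and cell line cannot be told apart.

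REV-ERBα and REV-ERBβ are heme-binding repressors of the circadian clock that recruit a corepressor complex to target genes. In the developing nervous system, progenitors that express Sox1, Sox2, Pax6 and the intermediate filament Nestin give rise first to neurons and later to astrocytes and oligodendrocytes. Immature neurons switch on microtubule and RNA-binding proteins such as β-III tubulin, doublecortin, stathmins and the Elavl proteins, and then synaptic and transmitter genes, whereas astrocytes are known by GFAP, glutamate transporters and aquaporin-4. Embryoid bodies without a neural induction step form derivatives of all germ layers, of which neural cells are usually a small and variable share.

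Each library held from 6183500.5 to 10287969.0 fragments on exons of the table. The level of Rev-erbα (Nr1d1) had a lowest, median and highest value of 3.58, 4.67 and 7.48 RPKM (reads scaled to exonic length and library size) in WT and 2.48, 6.93 and 9.74 in KO, and that of Rev-erbβ (Nr1d2) 0.895, 1.83 and 3.02 in WT and 1.38, 3.16 and 5.27 in KO. Because these counts cover whole genes, they do not show the deleted exons, and the genotype rests on the labels. The marker genes of other cell types were abundant: 8 fibroblast and smooth muscle markers summed to 2904 to 3459 RPKM in WT and 3184 to 4080 in KO, and 6 endoderm markers to 78.1 to 1016 in WT and 81.8 to 1016 in KO. The 24 neuronal genes summed to 16.6 to 81.9 RPKM in WT and 14.5 to 29.3 in KO, so they were a small part of these samples. The neuronal sum was highest in the WT libraries of 36 h (81.9) and 44 h (58.2) and the KO library of 48 h (29.3). The KO library of 16 h (26.6) was next in KO, close to those of 12 and 20 h (24.5 each). Results without these libraries are given below.

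**Figure D1:**
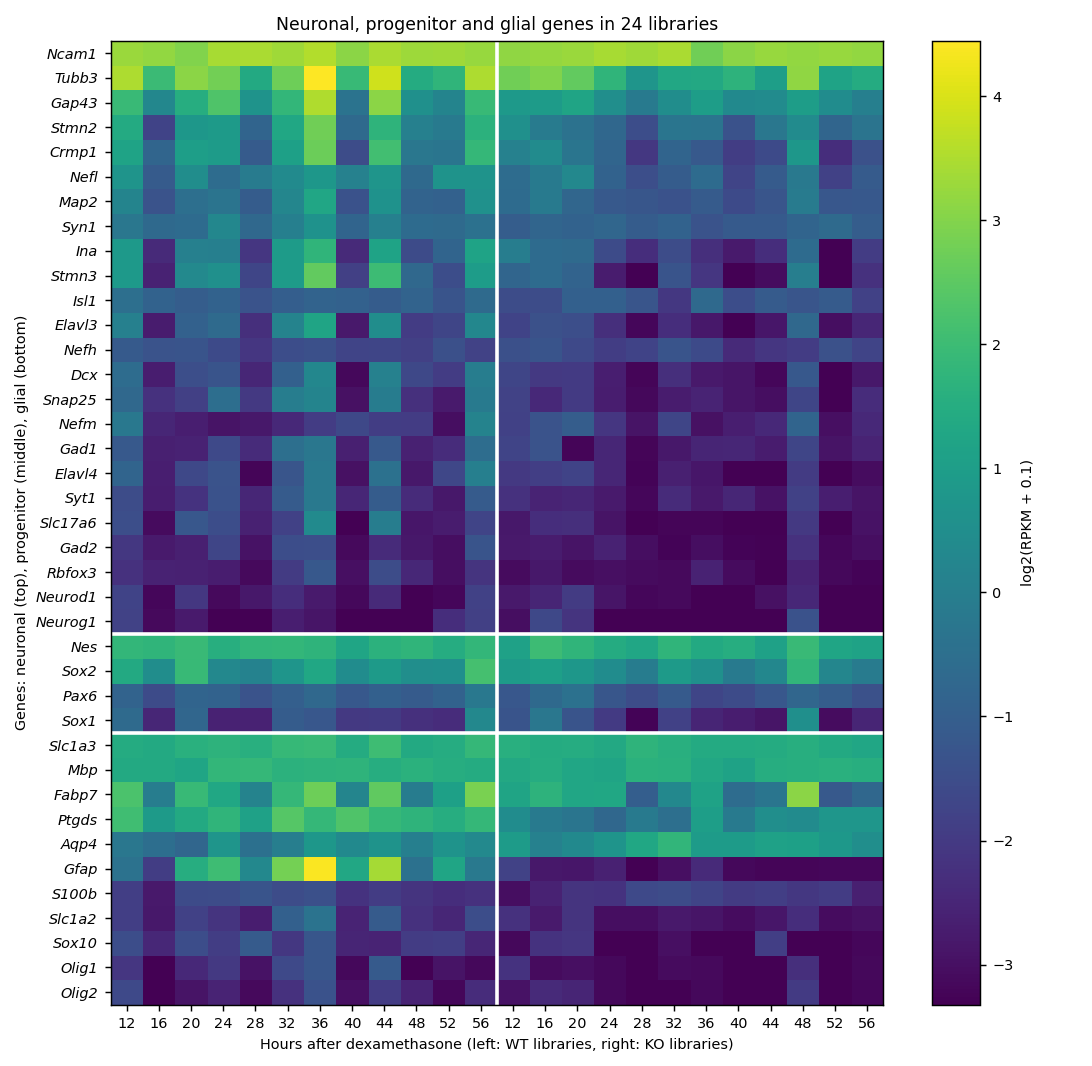
Level of each of the 39 genes (rows, ordered by mean within the neuronal, progenitor and glial groups) in each library (columns, WT left and KO right, by hours after dexamethasone), in log2(RPKM + 0.1). The WT columns of 36 and 44 h are bright for most neuronal genes and for Gfap, and the Gfap row is dark in all 12 KO libraries.

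Each gene was compared between the genotypes with limma on log2(RPKM + 0.1), fitted across 15112 genes with a mean above 0.5 RPM (reads scaled to library size alone) in WT or KO, and was called at an adjusted p under 0.05 (Benjamini-Hochberg over all of them). Of the 39 genes, 32 passed the filter, namely 21 neuronal, 4 progenitor and 7 glial genes. Of these 32, 24 passed in both genotypes and 8 only through their WT mean, and the latter had to be lower in KO to be admitted in that way, so the counts below describe the genes and are not support for a direction. The genes that passed in neither genotype were Rbfox3, Neurog1, Neurod1, S100b, Sox10, Olig1 and Olig2.

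Neuronal genes were mostly lower in KO, but the number of calls depended on which libraries were in the fit. Over the 3 groups 17 of the 32 were called in either direction (25.9% of all genes tested). Of the 21 neuronal genes, 13 were called lower and 0 higher, whereas 14.7% of all genes tested were called lower in KO and 11.2% higher. The 13 became 4 without the WT libraries of 36 and 44 h. They became 10 when the KO library of 48 h, or those of 16 and 48 h, were left out as well. Leaving out 1 library gave 10 to 17. Within hours 12 to 32 or within hours 36 to 56 alone, where fewer libraries entered, 1 was called. The share of all genes called in these fits is not given, so these counts have no background. The median log2 difference (KO minus WT) of the 21 was -0.87, against -0.01 over all genes tested, and the estimate was below 0 for each. Of the 21, 7 passed the filter only through their WT mean, which favoured a lower KO value in advance. Neither the median nor the signs of the 21 therefore support a direction. A median for the 14 that passed in both genotypes is not given. Among the 14 neuronal genes that passed the filter in both genotypes 7 were called, and among the 7 that passed only in WT 6 were called. These are bulk samples, in which fewer neurons and less RNA per neuron cannot be told apart.

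**Figure D2:**
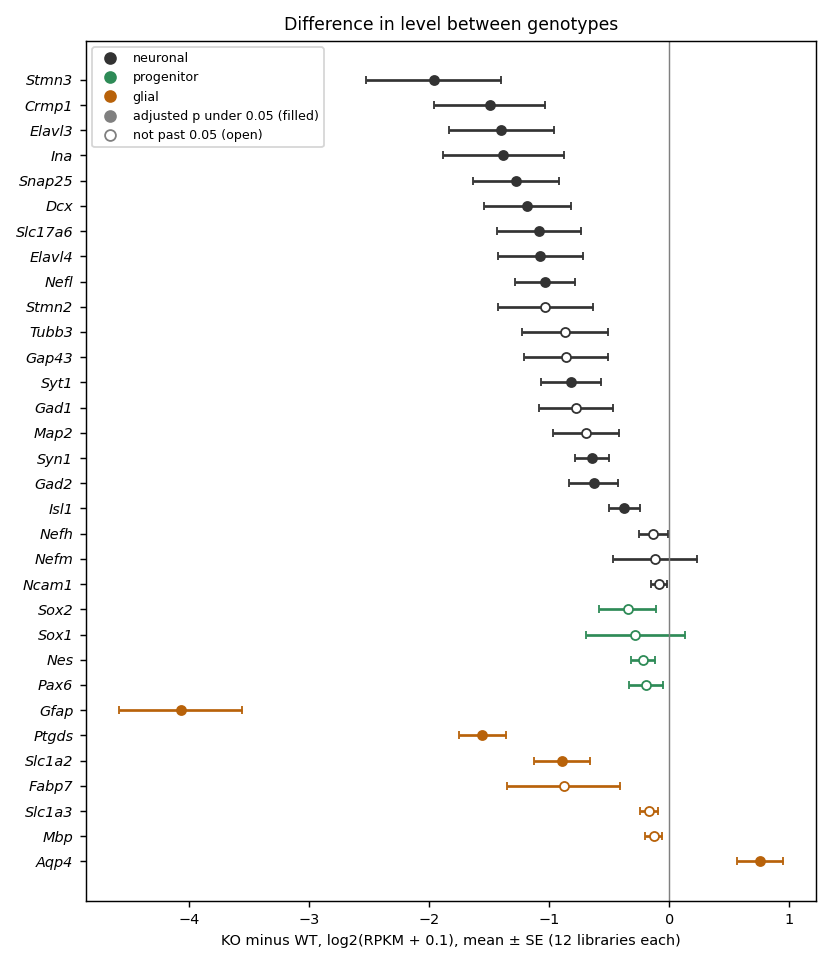
Difference in level between the genotypes for the 32 genes tested (KO minus WT, log2(RPKM + 0.1), point and SE from limma, 12 libraries each), grouped as neuronal (black), progenitor (green) and glial (orange), with filled points for an adjusted p under 0.05. All neuronal points lie left of 0, most with wide errors. The 4 progenitor points are open, and Gfap at -4.07 and Aqp4 at 0.76 mark the ends of the range.

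Among the cytoskeletal genes of young neurons, Stmn3, a stathmin that binds tubulin dimers (chr2:181306459-181314500, minus strand, GRCm38), fell furthest. Its lowest, median and highest levels were 0.0659, 1.28 and 5.92 RPKM in WT and 0, 0.125 and 0.897 in KO, with 3 KO libraries at 0. The groups overlapped, and 7 of the 12 WT libraries lay above the highest KO library. The KO mean was 0.159 of the WT mean, and the log2 difference was -1.96 (SE 0.56, limma adjusted p = 0.0123). Ina, the neurofilament α-internexin (chr19:47014698-47024346, plus strand), ran from 0.0880 over a median of 0.926 to 3.27 RPKM in WT and from 0 over 0.201 to 0.875 in KO, a log2 difference of -1.38 (SE 0.51, limma adjusted p = 0.0454). Its call was close to the threshold and held in 9 of 24 fits that each left out 1 library. It was lost without the WT library of 12, 20, 24, 32, 36, 44 or 56 h, or the KO library of 24, 28, 32, 36, 40, 44, 52 or 56 h, with adjusted p up to 0.0820. Crmp1, a collapsin response mediator of axon guidance, ran from 0.251 over 1.88 to 6.46 RPKM in WT and from 0.103 over 0.405 to 1.61 in KO (log2 difference -1.5, SE 0.46, limma adjusted p = 0.0195). Dcx, the doublecortin of migrating neuroblasts, ran from 0.0128 over 0.285 to 1.11 RPKM in WT and from 0 over 0.0510 to 0.339 in KO (log2 difference -1.18, SE 0.36, limma adjusted p = 0.0183). For Crmp1 7 WT libraries, and for Dcx 5, lay above the highest KO library.

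The neurofilament subunits did not move as 1 unit. Nefl, the light chain, was lower in KO, with 0.373, 1.26 and 1.63 RPKM as the lowest, median and highest WT levels and 0.185, 0.415 and 1.13 in KO (log2 difference -1.04, SE 0.25, limma adjusted p = 0.00396). The medium chain Nefm, next to Nefl on the opposite strand, was at 0.0228, 0.123 and 1.02 RPKM in WT and 0.0246, 0.111 and 0.465 in KO, a log2 difference of -0.12 (SE 0.35, limma adjusted p = 0.835) that turned to 0.08 under quantile normalization. Nefh, the heavy chain, was at 0.135, 0.248 and 0.355 RPKM in WT and 0.0913, 0.214 and 0.305 in KO (log2 difference -0.13, SE 0.12, limma adjusted p = 0.441). In the GENCODE annotation 1108 of the 3380 exonic bases of Nefl are also exonic to Nefm on the other strand. The use of strand in counting was not given in the sources used here, so reads there cannot be assigned with certainty to either gene. The same holds for 456 of 3240 exonic bases that Ina shares with Nt5c2.

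The neuronal genes with the highest mean level, Ncam1, Tubb3 and Gap43, were not called. Abundance did not set the calls apart, since Crmp1, Stmn3, Nefl and Ina, with a mean of at least 1 RPKM in WT or KO, were called. Tubb3, the neuronal β-tubulin, had a lowest, median and highest level of 2.55, 6.74 and 21.7 RPKM in WT and 1.57, 2.90 and 8.76 in KO, with 4 WT libraries above all KO libraries (log2 difference -0.87, SE 0.36, limma adjusted p = 0.0761). Gap43, a growth cone protein, was at 0.684, 3.10 and 11.3 RPKM in WT and 0.804, 1.31 and 2.24 in KO (log2 difference -0.86, SE 0.35, limma adjusted p = 0.0737). Stmn2 (log2 difference -1.03, SE 0.40, limma adjusted p = 0.0563) and Map2, which binds dendritic microtubules (-0.69, SE 0.27, adjusted p = 0.0619), were on the same side of the threshold. The values of Tubb3, Gap43, Stmn2 and Map2 spread over a wide range among WT libraries. A p of this size does not show that they were alike in both genotypes. Ncam1, the neural cell adhesion molecule, which muscle and mesenchyme also express, was the highest neuronal gene and the most even, with 7.79, 9.90 and 11.6 RPKM in WT and 6.69, 9.37 and 10.9 in KO (log2 difference -0.09, SE 0.07, limma adjusted p = 0.378).

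The RNA-binding genes Elavl3 and Elavl4 encode neuronal regulators of mRNA stability and splicing. Elavl3 (chr9:22015005-22052023, minus strand) was at 0.0457, 0.487 and 2.24 RPKM in WT as the lowest, median and highest levels and at 0, 0.0904 and 0.515 in KO (log2 difference -1.40, SE 0.44, limma adjusted p = 0.0211). Elavl4 was at 0.00842, 0.259 and 0.924 RPKM in WT and 0, 0.0496 and 0.194 in KO (log2 difference -1.07, SE 0.35, limma adjusted p = 0.0275), and its adjusted p was 0.0507 without the WT library of 36 h. For Elavl4, 8 WT libraries lay above the highest KO library, and 3 KO libraries were at 0. Rbfox3, which encodes NeuN of mature neurons, was too low to be tested, with at most 0.343 RPKM in WT and 0.0713 in KO, and was lower in KO at 11 of 12 hours.

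Of the 6 genes of the synapse and of transmitter use 5 were called lower in KO, beside 14.7% of all genes tested, and all were low in most libraries. All of the 6 but Syn1 passed the filter only through their WT mean, so they had to be lower in KO to be tested, and the count is no support for a direction. Syn1, which tethers synaptic vesicles, was the most regular of them, at 0.466, 0.601 and 1.47 RPKM in WT and 0.297, 0.419 and 0.537 in KO (log2 difference -0.64, SE 0.14, limma adjusted p = 0.00153). KO was below WT at 12 of 12 hours for Syn1, as it was for 3.65% of all genes tested, although 3 of the WT libraries lay within the KO range. Snap25, a subunit of the vesicle fusion complex, was at 0.0272, 0.349 and 1.04 RPKM in WT and 0, 0.0635 and 0.208 in KO (log2 difference -1.28, SE 0.36, limma adjusted p = 0.0102). Syt1, the calcium sensor of release, was at 0.0415, 0.185 and 0.785 RPKM in WT and 0.0108, 0.0628 and 0.185 in KO (log2 difference -0.82, SE 0.25, limma adjusted p = 0.0195). Among transmitter genes, Slc17a6, the glutamate transporter of excitatory synaptic vesicles, was at 0, 0.191 and 1.21 RPKM in WT and 0, 0.0189 and 0.145 in KO (log2 difference -1.09, SE 0.35, limma adjusted p = 0.0240). The GABA-synthesizing enzymes gave log2 differences of -0.63 for Gad2 (SE 0.20, limma adjusted p = 0.0258) and -0.77 for Gad1 (SE 0.31, adjusted p = 0.0653). Gad2 ran from 0.0153 over 0.0782 to 0.303 RPKM in WT and from 0.00416 over 0.0228 to 0.115 in KO. The estimates of Slc17a6, Gad1 and Gad2 were all lower in KO, but their route through the filter favoured this in advance. No conclusion on excitatory or inhibitory genes is drawn from them. The 12 KO libraries held 37 fragments of Slc17a6 and 41 of Gad2 in all, so counting error is large for these 2 genes.

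Of the neuronal transcription factors, Isl1, a factor of motor and sensory neurons that is also active in heart and pancreas, was at 0.294, 0.438 and 0.619 RPKM in WT and 0.138, 0.312 and 0.536 in KO (log2 difference -0.37, SE 0.13, limma adjusted p = 0.0367). This call held in 14 of 24 fits that left out 1 library. It was lost without the WT library of 12, 24, 36, 48 or 56 h or the KO library of 12, 16, 32, 40 or 56 h, with adjusted p up to 0.0649, and with the hour as a block (adjusted p = 0.0618). The proneural genes Neurog1 and Neurod1 were below the filter. Neurog1 had 19 fragments over the 12 WT libraries and 20 over the 12 KO libraries, and Neurod1 had 38 and 20.

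Upstream sequence is shown for 3 neuronal genes of this group and for Gfap, which had the greatest difference of all 32 genes. Each is the 250 bases before the RefSeq start (GRCm38.p6), 5′ to 3′ on the strand of the gene, chosen among windows that hold no GENCODE exon. The genes were picked by hand and each holds the letters marked, so they do not show how common these letters are. Capitals mark CAGATG or CAGCTG, the E-box letters preferred by proneural factors, in the neuronal genes, and TGGGTCA and AGGTCA, the letters of nuclear receptor sites that are read here on the reverse strand, in Gfap.
Stmn3, chr2:181314501-181314750, minus strand: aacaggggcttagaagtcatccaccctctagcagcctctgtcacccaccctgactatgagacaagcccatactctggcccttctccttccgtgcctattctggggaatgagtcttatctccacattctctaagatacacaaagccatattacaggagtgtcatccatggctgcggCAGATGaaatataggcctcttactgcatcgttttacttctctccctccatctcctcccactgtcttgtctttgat
Ina, chr19:47014431-47014680, plus strand: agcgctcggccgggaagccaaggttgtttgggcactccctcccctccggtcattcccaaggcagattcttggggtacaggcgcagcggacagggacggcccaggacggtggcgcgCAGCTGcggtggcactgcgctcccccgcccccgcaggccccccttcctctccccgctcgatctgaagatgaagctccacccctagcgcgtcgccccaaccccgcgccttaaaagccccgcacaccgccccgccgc
Elavl3, chr9:22052024-22052273, minus strand: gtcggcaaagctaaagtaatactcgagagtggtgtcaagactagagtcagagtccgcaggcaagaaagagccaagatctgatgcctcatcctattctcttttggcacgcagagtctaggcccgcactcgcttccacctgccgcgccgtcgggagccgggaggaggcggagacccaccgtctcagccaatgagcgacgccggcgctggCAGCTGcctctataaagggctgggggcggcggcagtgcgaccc
Gfap, chr11:102897201-102897450, minus strand: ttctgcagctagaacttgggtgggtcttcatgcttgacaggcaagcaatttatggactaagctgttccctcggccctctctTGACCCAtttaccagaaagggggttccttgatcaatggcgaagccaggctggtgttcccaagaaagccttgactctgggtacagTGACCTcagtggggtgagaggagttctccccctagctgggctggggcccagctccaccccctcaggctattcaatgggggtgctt

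The 28 genes with a RefSeq promoter were searched on both strands of these 250 bases, and shares refer to all 32851 promoters of the table. CAGATG was found in 5 of the 28 (14.4% of all promoters) and CAGCTG in 5 (13%). AGGTCA was found in 5, namely Gfap, Fabp7, Sox2, Elavl4 and Neurog1 (14.0%). TGGGTCA was found in Gfap and Gad2 (3.24%), and TAGGTCA, which contains AGGTCA, in Fabp7 (2.23%). In Gfap TGGGTCA lay 169 to 163 bases and AGGTCA 85 to 80 bases before the start. TTCAGCACC, a part of the RE1 element bound by the neuronal repressor REST, was found in Syn1 (0.301%), TTCCNNGAA, the letters bound by STAT factors, in Slc1a3 (4.06%), and the clock E-box CACGTG in 0 of the 28 (6.02%). These matches are letters in a window and were not tested for binding.

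The 4 progenitor genes were not called in either direction. Nes, the intermediate filament nestin, which young muscle and vessels also express, was the highest and the most even, with 2.29, 3.28 and 3.75 RPKM as lowest, median and highest WT levels and 2.08, 2.58 and 3.91 in KO (log2 difference -0.22, SE 0.10, limma adjusted p = 0.119). Sox2, a factor of neural and pluripotent stem cells, was at 0.998, 1.47 and 4.33 RPKM in WT and 0.797, 1.34 and 3.36 in KO (log2 difference -0.34, SE 0.24, limma adjusted p = 0.302). Pax6, a factor of dorsal forebrain, eye and pancreas, was at 0.239, 0.429 and 0.756 RPKM in WT and 0.211, 0.329 and 0.648 in KO (log2 difference -0.19, SE 0.14, limma adjusted p = 0.328). Sox1, the most restricted of the 4 to neural progenitors, ranged from 0.0668 to 1.14 RPKM in WT and from 0.00630 to 1.37 in KO (log2 difference -0.28, SE 0.41, limma adjusted p = 0.652). The median log2 difference of the 4 was -0.25 and all 4 estimates were below 0. With this SE, the p of Sox1 does not show that its level was alike in both genotypes. Nes was called lower when the KO library of 16 h, its highest, was left out (adjusted p = 0.0449).

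Of the 7 glial genes tested, 3 were called lower in KO, against 14.7% of all genes tested. Among the 3, Gfap passed the filter only through its WT mean, so it had to be lower in KO to be tested. Of the 7, 1 was called higher, which as a share is close to the 11.2% of all genes. The median log2 difference of the 7 was -0.88, the estimate of Fabp7, which was not called.

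Gfap, the intermediate filament of astrocytes (chr11:102887336-102897200, minus strand), differed most of the 32 genes tested. Its lowest, median and highest levels were 0.165, 2.36 and 20.9 RPKM in WT and 0, 0.0196 and 0.189 in KO, or 4.42 ± 6.0 in WT against 0.0415 ± 0.0536 in KO (mean ± SD, n = 12 each). KO was below WT at 12 of 12 hours, and 11 WT libraries lay above every KO library. The exception was the WT library of 16 h at 0.165 RPKM, which was below the KO library of 12 h. The 12 WT libraries held 2552.5 fragments of Gfap and the 12 KO libraries 21, with a median of 0.75 and a highest value of 7 per library, so the KO level was close to the limit of detection. The log2 difference was -4.07 (SE 0.51, limma adjusted p = 6.03e-06), and it was called in every fit that left out 1 library, with estimates from -4.35 to -3.78. Gfap passed the filter only through its WT mean. The size of the estimate depended on the pseudocount and ranged from -5.87 to -1.80 over 9 processing alternatives.

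Ptgds, the prostaglandin D synthase of meninges, choroid plexus and oligodendrocytes (chr2:25466712-25469749, minus strand), was at 1.77, 3.40 and 5.15 RPKM in WT as the lowest, median and highest levels and at 0.504, 1.04 and 1.96 in KO. KO was below WT at 12 of 12 hours, 11 WT libraries lay above all KO libraries, and the KO mean was 0.329 of the WT mean (log2 difference -1.56, SE 0.20, limma adjusted p = 6.36e-06). No gene of the 32 had groups without any overlap, which 0.41% of all genes tested had with KO lower and 0.199% with KO higher. Ptgds varied less from library to library than Gfap, with a coefficient of variation (SD over mean) of 30.2% in WT and 41.3% in KO against 136% and 129%. Slc1a2, the main glutamate transporter of mature astrocytes, was at 0.0429, 0.149 and 0.684 RPKM in WT and 0.0193, 0.0373 and 0.125 in KO, lower at 11 of 12 hours (log2 difference -0.89, SE 0.23, limma adjusted p = 0.00681). Its exons share 189 bases with an antisense gene.

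Aqp4, the water channel of astrocyte endfeet, which muscle, stomach and lung also express, was the only one of the 32 genes called higher in KO. It was at 0.495, 1.04 and 1.64 RPKM in WT and 0.967, 1.82 and 3.39 in KO, with 8 KO libraries above all WT libraries and KO higher at 11 of 12 hours (log2 difference 0.76, SE 0.19, limma adjusted p = 0.00539). At 24 h both genotypes were at 1.54 RPKM. Of the striated muscle markers 4 of the 7 tested were also called higher in KO and 1 lower, against 11.2% and 14.7% of all genes tested. All 4 epithelial markers were called higher, with a summed level of 145 to 277 RPKM in WT and 257 to 429 in KO. Other marker lists also had higher calls: fibroblast and smooth muscle 4 of 8 (1 lower), leukocyte 2 of 5, endothelial 1 of 4, eye and pigment 1 of 2. Endoderm had 0 of 6 and pluripotency 0 of 1. All epithelial markers were detected in every library, whereas Myog was at 0 in 3 WT libraries and 1 KO library and Myod1 in 5 and 7. The part of any of these cell types in the Aqp4 result was not tested.

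The other glial genes were not called. Slc1a3, the glutamate transporter of radial glia, was at 2.51, 2.89 and 4.02 RPKM in WT and 2.33, 2.65 and 3.24 in KO (log2 difference -0.17, SE 0.07, limma adjusted p = 0.0893). Mbp, the myelin basic protein, whose locus also makes non-myelin transcripts, was at 2.25, 2.89 and 3.53 RPKM in WT and 2.15, 2.73 and 3.04 in KO (log2 difference -0.13, SE 0.07, limma adjusted p = 0.179). Fabp7, the brain lipid-binding protein of radial glia, ranged from 0.852 to 7.33 RPKM in WT and from 0.349 to 8.37 in KO (log2 difference -0.88, SE 0.47, limma adjusted p = 0.177). The genes that were too low to be tested included the oligodendrocyte factors Olig1 (53.5 fragments over 12 WT libraries, 12 over 12 KO libraries) and Olig2 (47.5 and 17), and Sox10 of Schwann and oligodendrocyte lineages (99.5 and 23.5, with 6 KO libraries at 0). S100b had 61 fragments in WT and 50 in KO. With no filter applied, all 39 genes were tested. Then 12 neuronal genes and 4 glial genes were called lower in KO and 1 gene higher. The share of all genes called in that fit is not given, so these counts have no background. Of the 7 low genes, Rbfox3 (log2 difference -0.64, limma adjusted p = 0.0181) and Sox10 (-1.03, adjusted p = 0.00163) were called in that fit.

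**Figure D3:**
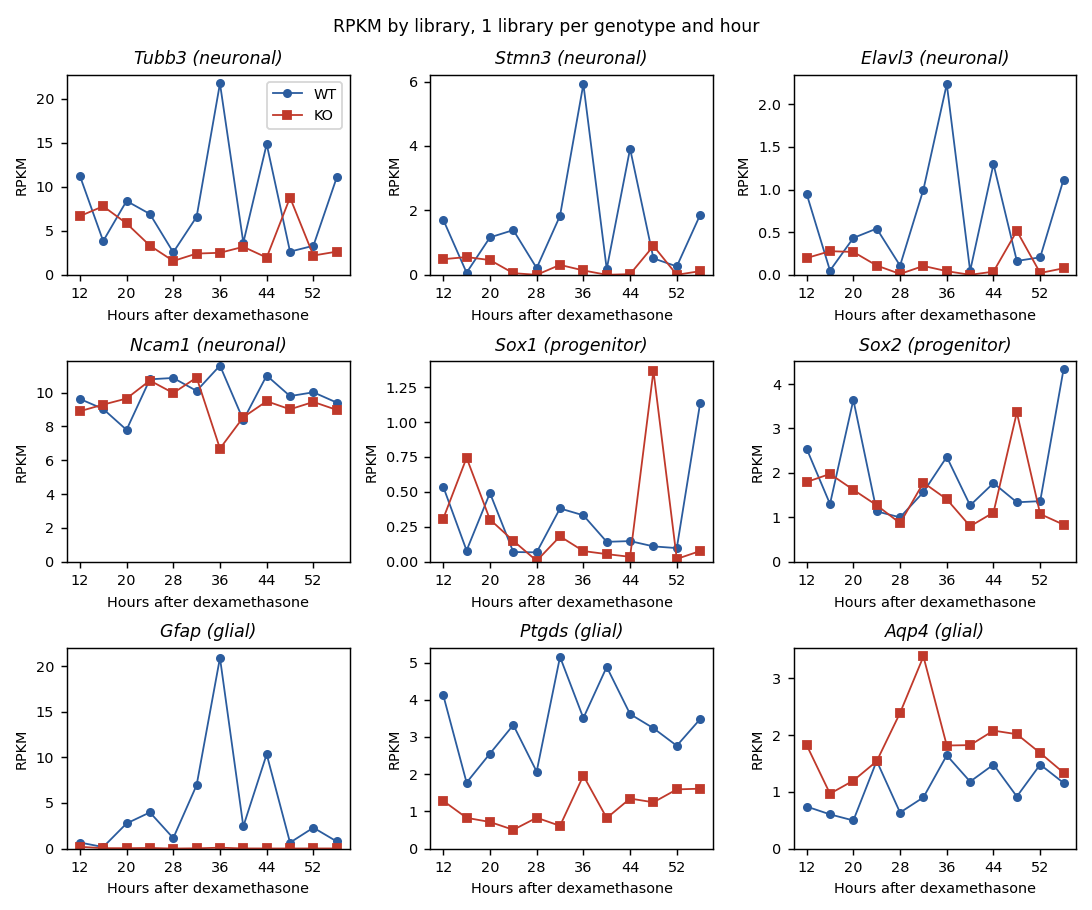
Level in RPKM (y axis, linear, from 0) of 9 genes against hours after dexamethasone, 1 library per point, WT as blue circles and KO as red squares. Tubb3, Stmn3, Elavl3 and Gfap jump between neighbouring WT libraries with their highest point at 36 h, Sox1 and Sox2 are highest at 56 h in WT and at 48 h in KO, while Ptgds and Aqp4 separate by genotype at most hours.

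Neuronal genes were concentrated in a few libraries. In WT, the 36 h library was the highest for 16 of the 21 neuronal genes tested and among the 3 highest for 19, and the 44 h and 56 h libraries were among the 3 highest for 16 and 13. In KO the 48 h library was the highest for 11 of 21, and the libraries of 48 and 16 h were among the 3 highest for 17 and 15. Between neighbouring WT libraries Tubb3 went from 6.58 RPKM at 32 h to 21.7 at 36 h, 3.65 at 40 h and 14.8 at 44 h. The coefficient of variation was over 50% for 16 of 21 neuronal genes in WT and 14 in KO, compared with 4.47% and 2.77% of all genes tested, and its median was 89.1% in WT and 84.2% in KO against 9.99% and 9.87% over all genes. Ncam1, at 11.3% in WT, Isl1 at 21.2% and Nefh at 25.5% were the exceptions at the low end. Endoderm markers also differed between libraries by a wide margin, with a median coefficient of variation of 58.9% in WT, and their sum was 750 RPKM in the WT library of 36 h against a WT median of 245. It did not go along with the neuronal sum in other libraries: the WT library of 44 h, second in neuronal RNA, had the lowest endoderm sum of WT (78.1), and that of 16 h, with a neuronal sum of 17.4, had the highest (1016). The part of tissue makeup in the neuronal values was not tested.

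The libraries rich in neuronal RNA were not alike. Compared with the WT library of 56 h, that of 36 h had more Gfap (20.9 against 0.777 RPKM), Slc17a6 (1.21 against 0.200), Gap43 (11.3 against 3.66) and Stmn3 (5.92 against 1.86). The 56 h library had more Sox1 (1.14 against 0.332), Sox2 (4.33 against 2.36), Nefm (1.02 against 0.160) and Neurod1 (0.184 against 0.0489). Dcx (1.11 and 0.875) and Snap25 (1.04 and 0.818) were close in both. Progenitor genes followed the 56 h and 20 h libraries in WT, which were both among the 3 highest for 4 of 4, and the 16 h and 48 h libraries in KO, again for 4 of 4. With 1 library per hour these differences have no replicate.

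Gfap and the neuronal genes came apart in some libraries. The KO library of 48 h had 8.76 RPKM of Tubb3 and 0.00852 of Gfap, whereas the WT library of 40 h had 3.65 of Tubb3, 0.0128 of Dcx and 2.43 of Gfap. The Pearson r with the mean of 10 neuronal genes was 0.69 over the 12 WT libraries and 0.36 over the 12 KO libraries for Gfap, 0.92 and 0.81 for Slc1a2, and 0.43 and -0.24 for Ptgds. These are descriptions, since both values come from the same libraries. Gfap was close to the limit of detection in KO, so its KO r and its single KO values have a large counting error. In an alternative chosen after the data were seen, that mean was entered as a covariate. The log2 difference between the genotypes was then -2.97 for Gfap (limma adjusted p = 0.000525), -1.46 for Ptgds (0.000493), 0.90 for Aqp4 (0.0135) and -0.18 for Slc1a2 (0.423). The covariate itself differed with genotype, from -0.741 to 2.13 SD units in WT and from -1.12 to 0.267 in KO. This fit therefore cannot separate a change in a glial gene from a change in neural content, and its values are descriptions.

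**Figure D4:**
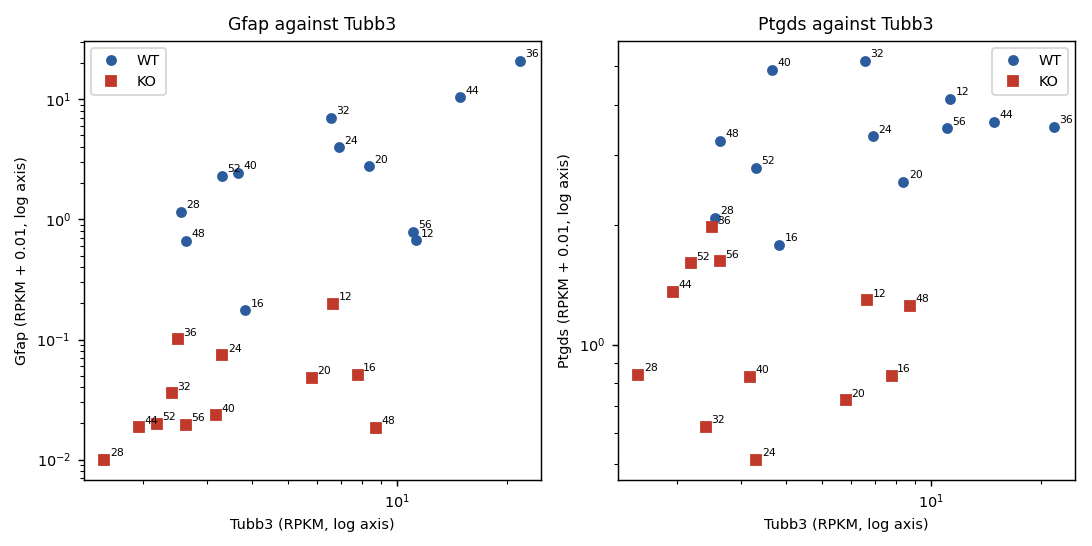
Gfap (left) and Ptgds (right) against Tubb3 in each of the 24 libraries (RPKM, log axes, with 0.01 added on the y axis; WT blue circles, KO red squares, numbers give hours after dexamethasone). The KO libraries mostly lie below the WT libraries, with Gfap at or under 0.189 RPKM in all 12 KO libraries. The ranges of the genotypes overlap for both genes, and levels at matched Tubb3 were not compared by a test.

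The calls were re-examined without the libraries that stood apart, in alternatives chosen after the data were seen. The share of all genes called in each fit with fewer libraries is not given, so the counts below have no background. Without the WT libraries of 36 and 44 h, 4 neuronal genes remained called lower, namely Syn1 (adjusted p = 0.00296), Nefl (0.0160), Snap25 (0.0379) and Stmn3 (0.0438), and the 3 glial genes and Aqp4 kept their calls. When the KO library of 48 h was left out as well, 10 neuronal genes were called, and also 10 when those of both 16 and 48 h were, and the 3 glial genes and Aqp4 were called in both fits. Within hours 12 to 32 only Syn1 was called among neuronal genes, and within hours 36 to 56 only Nefl, with 6 libraries a group. Gfap and Ptgds were called in both of these spans, with log2 differences of -3.46 and -1.82 in the earlier and -4.68 and -1.29 in the later.

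No gene was called for a change over time. With limma, 0 of the 32 genes had a linear trend over the 12 to 56 h at an adjusted p under 0.05, and 3 at an unadjusted p under 0.05, against 10.3% and 24.6% of all genes. The 3 were Nefh, with a slope of -0.22 per 24 h on the log2 scale, Aqp4 with 0.34 and Ptgds with 0.34. The slope differed between the genotypes for 0 genes by either criterion (0% and 7.35% of all genes). A 24 h rhythm was called for 0 of the 32 (0.0728% of all genes), with 0 at an unadjusted p under 0.05 (8.75%), and a difference in rhythm for 0, with 0 unadjusted (0% and 4.82%). The spread among libraries was compared as the absolute deviation from the median of the genotype. It differed for 0 of the 32 at an adjusted p under 0.05 (0% of all genes) and for 15 at an unadjusted p under 0.05 (4.71% of all genes), 11 of them neuronal. Snap25 had the smallest of these p-values, with a deviation 0.65 smaller in KO on the log2 scale (SE 0.13, limma adjusted p = 0.139). On simulated data this test recovered few of the changes in spread that were put in, unlike the other tests, so the lack of calls says little about the spread.

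Further genes of each class were taken from lists made for this comparison with earlier results of these data known. Their counts are therefore descriptions and no independent support. Of 56 other neuronal genes 43 were tested, and 24 were called lower and 0 higher in KO (median log2 difference -0.65), against 14.7% and 11.2% of all genes tested. Of the 43, 13 passed the filter only through their WT mean, 8 of them among the 24, and 16 were called without the WT libraries of 36 and 44 h. Those with the smallest p were Rtn1, a reticulon of the endoplasmic reticulum (3.67 ± 1.02 RPKM in WT, 2.26 ± 0.312 in KO, limma adjusted p = 0.000262), and the secretogranins of dense-core vesicles Scg3 (0.794 ± 0.652 against 0.114 ± 0.0930, adjusted p = 0.000315) and Scg2 (1.24 ± 0.923 against 0.322 ± 0.113, adjusted p = 0.000387). Of 19 other glial genes 13 were tested and 6 were called lower, against the same 14.7% of all genes tested. Among the 6 was Cldn11, a claudin of myelin that is also made outside the nervous system (0.313 ± 0.136 against 0.112 ± 0.0957, limma adjusted p = 0.000389). Of these 13 glial genes, 3 passed only through their WT mean, and 5 were called without the WT libraries of 36 and 44 h. The share of all genes called in the fit without those libraries is not given, so the 16 and the 5 have no background. Of 19 other progenitor genes 13 were tested, and 1 was called lower and 2 higher, against the same 14.7% and 11.2%. Zic1, a factor of dorsal neural tissue and mesoderm, was called lower (1.89 ± 0.355 against 0.992 ± 0.701 RPKM, adjusted p = 0.000766). Emx2, a factor of forebrain and urogenital tissue (1.09 ± 0.123 against 1.41 ± 0.147, adjusted p = 0.000178), and Prom1, a surface protein of stem cells and epithelia (1.07 ± 0.463 against 1.5 ± 0.311, adjusted p = 0.0192), were called higher.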

How the data were processed

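The authors trimmed 101-bp paired-end reads with Trimmomatic 0.36, aligned them to GRCm38 (mm10) with STAR 2.5.4b, kept alignments with a mapping quality of at least 10 and used HOMER to count them on exons (UCSC known canonical genes). The deposited values are the authors' RPKM for 33079 genes in 24 libraries. Undoing the scaling by length and total returned steps of 0.5 fragment (within 0.005) for 100.0% of values, and fragments so obtained describe depth only. PCR duplicates may be among them, so fragment numbers cover counting error only.

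The 39 members and all gene lists were chosen with earlier results of these data known. Values are lowest, median and highest, or mean ± SD, over 12 libraries of a genotype. All tests were two-sided and used limma (3.58.1, R 4.3.3) with values as log2(RPKM + 0.1), across 15112 genes above 0.5 RPM in WT or KO, with adjustment after Benjamini and Hochberg (threshold 0.05), and differences are on that scale, which understates changes of low genes. Nothing says that libraries came from separate cultures, so p-values measure the spread between these pooled samples. The tests were tested on simulated data, where the test of spread recovered few of the changes and the others most. The changed genes were drawn at random from all genes tested, most of which vary less than the neuronal genes, so this recovery does not carry over to those. Values are given in full for called members, the 3 highest of each group and, where any had occurred, genes with 1 library over 10 times the median of its genotype, and for the 5 other list genes with the smallest p; Zic1, Prom1 and further members were named after their values were seen. Alternatives were a pseudocount of 1 or 0.01, no filter, a mean of at least 1 RPKM, quantile normalization, the hour as a block, hours 12 to 32 or 36 to 56 alone, rhythm covariates and leaving out libraries. Promoters are from RefSeq GRCm38.p6 and matched 28 of 39 genes by symbol, 23 with the same start as the table. Python 3.11.15, pandas 2.3.3 and matplotlib 3.10.9 were used.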

Additional observations from a re-analysis of the deposited data

How the results depend on the processing

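Of the 17 calls between the genotypes, 14 held in every fit that left out 1 library, and 2 (Gfap and Ptgds) held under all 9 alternatives to the processing or the fit that left no single library out. With all libraries in the fit, Ina was lost without a filter and with a pseudocount of 0.01, Isl1 without a filter, with quantile normalization and with the block, and Gad2 with quantile normalization. The count of neuronal genes lower in KO, 13, became 4 with a mean of at least 1 RPKM, where fewer genes are tested, 1 in hours 12 to 32, 1 in hours 36 to 56, where fewer libraries enter, and 4 without the WT libraries of 36 and 44 h, and ranged from 10 to 17 when 1 library was left out, lowest without the WT library of 36 h. The neuronal count was 10 when the KO library of 48 h, or those of 16 and 48 h, were left out beside the WT libraries of 36 and 44 h. The share of all genes called in these fits is not given. Genes higher in KO, 1, became 0 in hours 12 to 32 and 0 in hours 36 to 56. Progenitor genes lower in KO, 0, became 1 without the WT libraries of 36 and 44 h and the KO libraries of 16 and 48 h, and 0 to 1 when 1 library was left out. Genes with a difference in spread, 0, became 1 with a pseudocount of 1 and 1 with quantile normalization; the cause was not tested. Estimates that were not called changed sign for Nefm (0.0796 with quantile normalization, 0.43 in hours 12 to 32, and from -0.233 to 0.0784 when 1 library was left out, above 0 without the WT library of 12 h, at 0.0453, or of 56 h), in hours 12 to 32 also for Pax6 (0.0505), Sox1 (0.0273) and Ncam1 (0.0346), and with the neuronal mean as a covariate for Fabp7 (0.473), Pax6 (0.132), Sox2 (0.165) and Sox1 (0.628). Quantile normalization left 1936 genes of the whole table lower and 1796 higher in KO, against 2225 and 1693, and moved the median of all genes from -0.0127 to -0.0051.

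With the hour as a replicate block the counts were 13 neuronal, 0 progenitor and 3 glial genes lower and 1 higher. In that fit Stmn2 gained a call (adjusted p = 0.0309) and Isl1 lost its own. The hours were not taken as pairs: deviations of WT and KO libraries of the same hour had a mean r of 0.163 (-0.175 to 0.389), over 0.1 in 7 of 12 pairs, against -0.0149 for different hours, and 5 of 12 WT libraries were closest to their own hour. This is a hint of likeness within some hours, from the data and not from the design.

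Depth limits the low genes: the KO libraries held at most 7 fragments of Gfap, 13.5 of Slc17a6 and 8 of Olig2 each, so single KO values of these genes have a large counting error.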

Other observations

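Outside the 39 genes, those whose profile over the 24 libraries was closest to the mean of 10 neuronal genes (log2(RPKM + 0.1), each centred and scaled) were Nsg2, an endosomal protein of neurons (Pearson r 0.96), Dpysl5, a collapsin response mediator (0.96), Kif1a, a kinesin motor of axonal transport (0.96), Stmn4, a stathmin (0.95), and Sbk1, a kinase (0.95). Within the 12 WT and the 12 KO libraries r was 0.96 and 0.93 for Nsg2, and 0.96 and 0.84 for Stmn4. They were chosen among 11922 genes with a mean of at least 1 RPKM for this likeness, and libraries share their depth with the mean, so the values are descriptions. Nsg2 and Stmn4 had ranges like those of Stmn3, with 0.228 to 5.75 RPKM in WT and 0.0111 to 1.21 in KO for Nsg2, and 0.352 to 6.33 in WT and 0.0955 to 0.849 in KO for Stmn4. Dpysl5 and Sbk1 had a higher floor, at 2.58 to 6.50 RPKM in WT and 1.87 to 3.33 in KO for Dpysl5 and 1.88 to 5.53 in WT and 1.44 to 2.86 in KO for Sbk1.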
